A study of Mus musculus with 10 samples.

Results

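The genes described here belong to the interferon response and to antigen presentation by major histocompatibility complex (MHC) class I molecules. They were chosen by name: 40 mouse gene symbols, matched through NCBI gene identifiers to the rows of a table of read counts, of which 39 had a row among the 18103 gene rows of the table and 33 held enough counts to be tested. Rnf213, the remaining gene, was not analysed here. Counts came from RNA sequencing of 10 libraries of 2 mouse breast cancer lines in culture, 2 libraries per group from 2 independent experiments, all harvested on day 7. Py2T-LT (Py2T long term) cells were sampled as controls, with a MEK inhibitor (MEKi), and with bone morphogenetic protein 2 (BMP2) together with the inhibitor. MTΔECad cells, mesenchymal breast cancer cells named for a deletion of E-cadherin, were sampled as controls and with rosiglitazone, which activates the nuclear receptor PPARγ. Per the protocol, BMP2 was usually given at 200 ng/ml, PD98059 (the inhibitor) at 40 µM and rosiglitazone at 2 µM, controls received DMSO in their medium, and the labels of the single samples state no dose. In that protocol cancer cells receive rosiglitazone at a step following BMP2, so whether the BMP2 medium of the Py2T-LT cells held it is not known here. Each line is a single cell line, and whether it is 1 clone is not given in the sources used here.

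Type I interferons signal through the receptor chains IFNAR1 and IFNAR2 and the kinases JAK1 and TYK2, and interferon γ through IFNGR1, IFNGR2, JAK1 and JAK2. The first route acts, with STAT2 and IRF9, on interferon-stimulated response elements (ISRE), and the second on gamma-activated sites (GAS). The induced genes block viral RNA (Ifit, OAS and Mx proteins), sense it (RIG-I and MDA5), guard the cytosol (guanylate-binding proteins), and supply peptides and chains for the class I molecules that tumour cells show to T cells.

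Library totals ran from 14659987 to 17249199 counts, and 1 count was worth at most 0.0696 CPM, the count scaled to the library's TMM-adjusted total. Pearson's r between the 2 libraries of a group was 0.9953 to 0.9969 over genes, on the log2(CPM + 1) scale, and was lowest for the Py2T-LT controls. The chi-square per gene between the 2 libraries was 17.19 in Py2T-LT controls, against 5.5 to 7.88 in the other groups. The Py2T-LT control libraries thus differed most from each other. The tests below use 1 fit over all 10 libraries, which gives this pair no spread of its own. Of 20 listed markers of blood cells, 11 had a row, and their summed level was 3.72 to 8.92 CPM in the 10 libraries. Of these 11, 4 to 9 were at 0 in a library, and Cd68 was the highest, at up to 7.17 CPM. All 12 mesenchymal markers were detected in each library, summing to 10230 to 21330 CPM. Cdh1, the E-cadherin gene, stood at 31.7 to 36.0 CPM in Py2T-LT controls and at 2.25 to 4.61 CPM in the 4 MTΔECad libraries. Whole-gene counts do not separate the deleted part of Cdh1 from the rest. In these bulk samples, fewer cells with a transcript and less of it per cell cannot be told apart.

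A promoter sequence of 300 bases, from 250 before to 50 after a start listed by RefSeq (GRCm38.p6, the assembly of mm10), was matched for 31 of the 40 genes and not for Dhx58, Oas2, Mx1, Mx2, Usp18, Zbp1, Parp9, Parp14 and Nlrc5. The ISRE core was searched as GAAA, any 2 bases and GAAA, which on the other strand reads TTTC, any 2 bases and TTTC. It was found in 12 of the 31 genes (38.7%), against 3.99% of 27025 genes and 3.44% of 32851 promoters of the same length. The GAS letters TTCNNNGAA, which read the same on both strands, were found in 6 of the 31 genes (19.4%), against 9.55% of genes and 8.3% of promoters. In Bst2 a match of one motif overlapped a match of the other. The 5 genes below fell in Py2T-LT cells given BMP2 with the inhibitor and hold the ISRE core ahead of a listed start, and their stretches are shown so that its repeats and spacing can be read. Capitals mark the ISRE core matches, and each stretch is written 5′ to 3′ on the + strand, which is the strand of the gene.

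Ifit1 (chr19:34640765-34640833): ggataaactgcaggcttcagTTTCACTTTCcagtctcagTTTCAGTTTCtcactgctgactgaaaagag

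Ifit3 (chr19:34583353-34583436): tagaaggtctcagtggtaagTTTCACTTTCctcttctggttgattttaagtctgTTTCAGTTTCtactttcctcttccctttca

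Gbp2 (chr3:142620584-142620633): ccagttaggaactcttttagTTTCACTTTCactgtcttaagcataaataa

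Gbp3 (chr3:142559979-142560034): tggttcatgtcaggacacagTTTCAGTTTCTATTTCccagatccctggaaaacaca

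B2m (chr2:122147528-122147577): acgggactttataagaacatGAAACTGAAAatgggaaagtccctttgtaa

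Ifit1 and Ifit3 each held 2 separate matches, Gbp3 held 2 that overlap, and Gbp2 and B2m held 1 each. The first match began 104 bases before the listed start in Ifit1, 156 in Ifit3, 59 in Gbp2, 45 in Gbp3 and 139 in B2m. That start was the outermost start of the gene in Ifit1, Gbp2 and B2m, but lay 410 bases inside the gene in Ifit3 and 28 bases inside it in Gbp3, so the Ifit3 stretch lies within the annotated gene. Irf1, a transcription factor gene whose level differed little between groups, is shown beside them for its GAS match, in capitals, which began 90 bases before its outermost start on the + strand.

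Irf1 (chr11:53769904-53769952): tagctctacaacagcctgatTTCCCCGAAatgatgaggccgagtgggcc

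A match is a description of the letters and not evidence of binding. The ISRE core was present in 6 of the 14 promoters of genes that fell with BMP2 and the inhibitor and in 4 of 11 of those not called there.

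Levels per transcript length differed widely between the genes. In RPKM, the CPM divided by exon length in kilobases, B2m, the light chain shared by class I molecules, led every group, at 447 in Py2T-LT controls and 629 in MTΔECad controls (means of 2 libraries). H2-D1, a class I heavy chain gene, came next at 57.3 and 134.5 RPKM. In Py2T-LT controls 18 of 39 genes lay below 1 RPKM and 9 above 10 RPKM, and in MTΔECad controls 12 lay below 1 and 10 above 10. Over the 10 libraries Irf1, the most abundant of the transcription factor genes, ran from 73.0 to 91.5 CPM, Ifi35, an interferon-induced gene, from 19.2 to 33.0 CPM, and Parp9, an ADP-ribosyltransferase family gene, from 42.9 to 59.4 CPM. The genes at the low end included the sensors of the OAS family: Oas1a had 3 counts and Oas2 had 2 counts in all 10 libraries together. With Oasl1, Usp18, Rsad2 and Ifi44 they make up the 6 genes with too few counts to test, none of which exceeded 12 counts in a library. Rsad2, which encodes the antiviral enzyme viperin, had 3 and 5 counts in Py2T-LT controls, 3 and 7 with the inhibitor, and 0 in both libraries with BMP2 and the inhibitor.

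**Figure D1:**
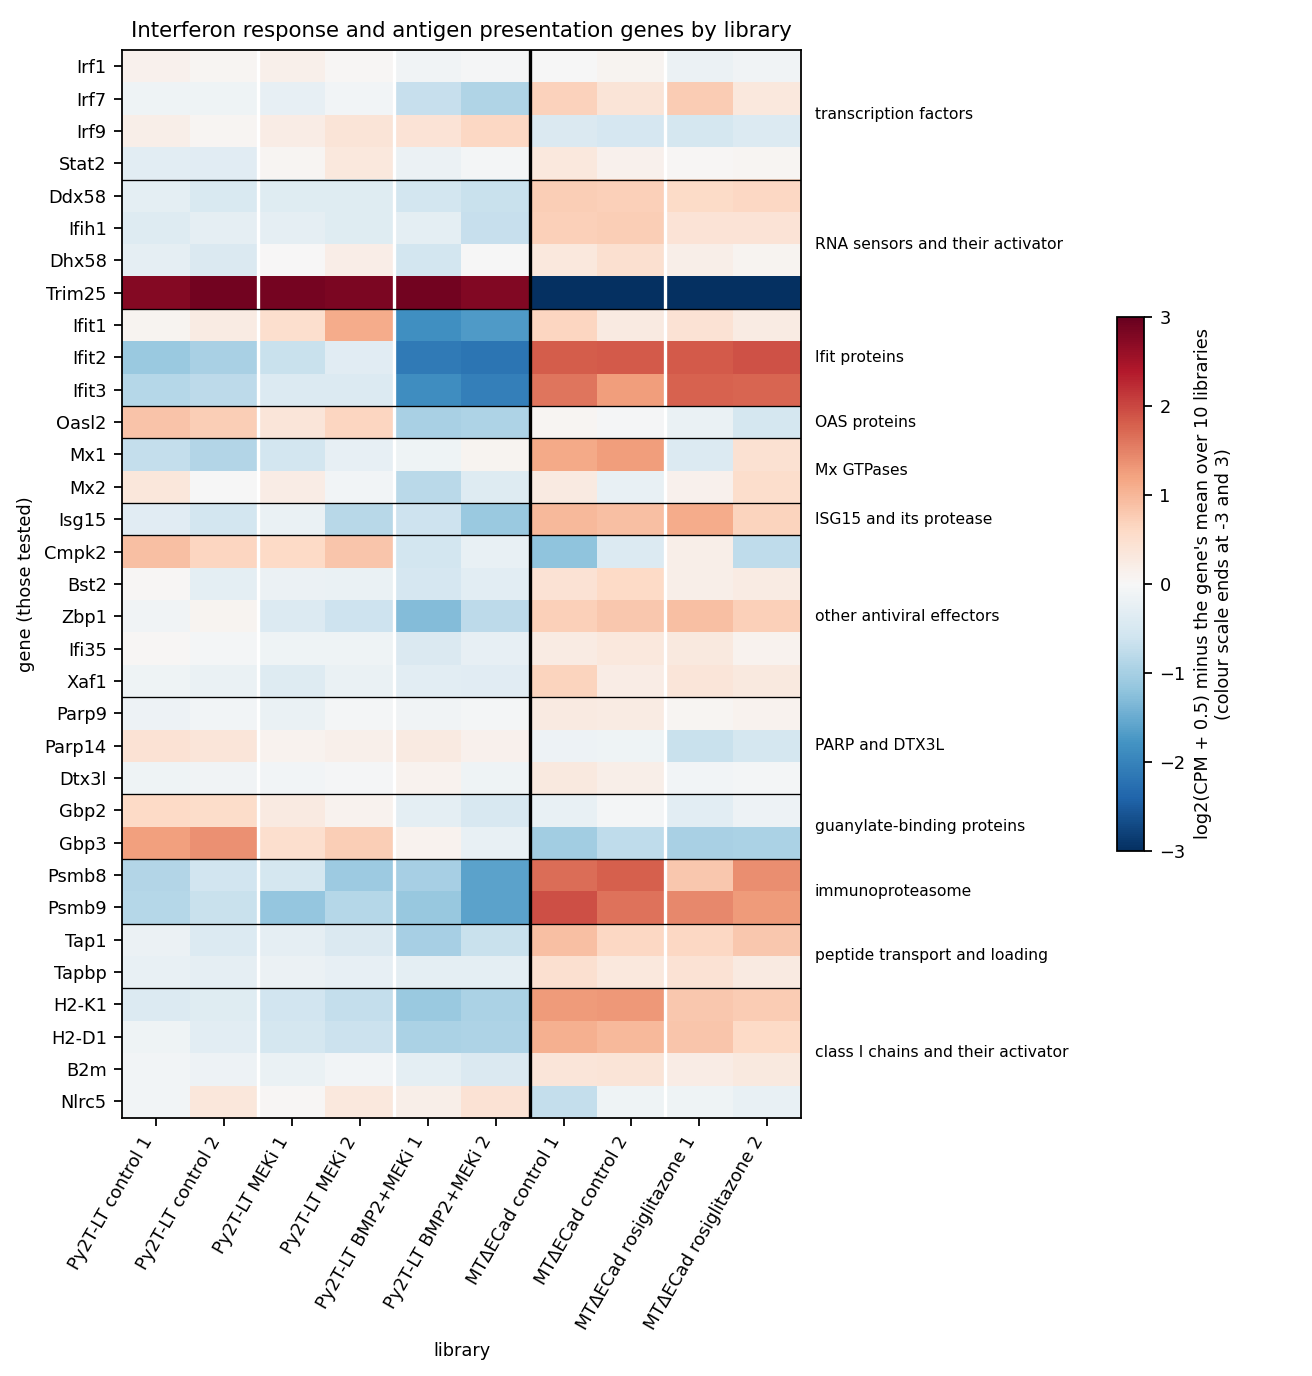
Log2(CPM + 0.5) of the 33 tested genes (rows, grouped by role) in the 10 libraries (columns), each minus the gene's mean over the libraries; red is above and blue below that mean, and the colour scale ends at -3 and 3. The 4 MTΔECad columns on the right are redder for most genes, Trim25 and Gbp3 are the reverse, and the 2 BMP2 and inhibitor columns are the bluest for the Ifit genes.

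The MEK inhibitor alone was set against the Py2T-LT controls, a comparison that reads the effect of inhibiting MEK, a kinase of the ERK cascade. A few Ifit genes and Stat2 were higher, and guanylate-binding protein and class I heavy chain genes were lower, all by less than 1 on the log2 scale. Of the 33 tested genes 3 rose and 5 fell (edgeR's quasi-likelihood test, Benjamini-Hochberg adjusted p under 0.05 over the 13149 genes tested), where 16.5% of all genes were called, 8.98% rising and 7.52% falling. The median log2 fold change was -0.04 against 0.01 over all genes.

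Ifit2, whose protein is an RNA-binding translation inhibitor, stood at 16.7 and 18.3 CPM in the control libraries and at 22.9 and 28.8 CPM with the inhibitor, and rose by 0.57 ± 0.11 (log2 fold change ± SE; edgeR adjusted p = 7.8e-04). Ifit1, which binds viral RNA lacking cap methylation, went from 4.19 and 4.75 CPM to 5.82 and 9.15 CPM and rose by 0.75 ± 0.22 (edgeR adjusted p = 0.021). The inhibitor libraries lay above the controls for both genes, with the 2 inhibitor libraries far apart for Ifit1. Stat2, the interferon signal transducer, stood at 9.43 and 9.25 CPM in controls and at 12.4 and 15.0 CPM with the inhibitor, a rise of 0.56 ± 0.14. Ifit3 gave 0.56 ± 0.32 and did not pass (edgeR adjusted p = 0.27).

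Gbp3, a GTPase gene of the guanylate-binding family, stood at 36.0 and 39.7 CPM in controls and at 21.9 and 25.8 CPM with the inhibitor, and fell by 0.67 ± 0.13 (edgeR adjusted p = 6.5e-04). Gbp2 stood at 88.0 and 85.2 CPM in controls and at 70.1 and 62.8 CPM with the inhibitor, a fall by 0.38 ± 0.10. Neither gene's libraries overlapped between the groups. The class I heavy chain genes H2-D1 and H2-K1 fell by 0.37 ± 0.09 and 0.27 ± 0.09, and Parp14, an ADP-ribosyltransferase gene, fell by 0.28 ± 0.09. Parp14 stood at 52.3 and 49.7 CPM in controls and at 41.5 and 42.8 CPM with the inhibitor. B2m, at 364 and 394 CPM against 393 and 376 CPM in controls, overlapped them. The transporter gene Tap1, the immunoproteasome genes Psmb8 and Psmb9 and the RNA sensor genes Ddx58, Ifih1 and Dhx58 were not called, nor were the other tested genes.

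Ifit2 and Gbp3 were the 2 calls that passed in each of the 16 other analyses. Without MEKi replicate 2, adjusted p became 0.43 for Ifit1 (log2 fold change 0.38), 0.15 for Stat2, 0.11 for Gbp2, 0.31 for H2-K1 and 0.070 for H2-D1. Without control replicate 1 it was 0.10 for Ifit1, 0.071 for H2-K1 and 0.068 for H2-D1, and without control replicate 2 it was 0.056 for Stat2 and 0.18 for H2-K1. The Parp14 call was lost without any 1 of 6 libraries (adjusted p 0.061 to 0.20), the largest being without MEKi replicate 1, and with upper quartile scaling (0.052), no count filter (0.060), the compared groups alone (0.0502) and DESeq2 (0.12). DESeq2 did not call Ifit1 (0.11) or H2-K1 (0.072), H2-K1 gave 0.069 with the compared groups alone, and H2-K1 reached 0.055 and 0.056 without either MTΔECad control.

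In the receptor and kinase list, 1 of 8 tested genes rose and 2 fell, where 16.5% of all genes were called. Tyk2, a kinase of the type I receptor, rose by 0.39 ± 0.10 (edgeR adjusted p = 0.0058, and 0.14 with 0.26 without MEKi replicate 1), Jak2 fell by 0.44 ± 0.09 and Il10rb fell by 0.52 ± 0.12. The receptor genes gave -0.22 ± 0.08 for Ifnar1, -0.14 ± 0.10 for Ifnar2, -0.18 ± 0.08 for Ifngr1 and -0.25 ± 0.10 for Ifngr2, and were not called. Of 45 other interferon-stimulated genes none rose and 5 fell by edgeR (4 rose at an unadjusted p under 0.05, and by DESeq2 none rose and 3 fell), led by Lgals9, the galectin-9 gene, at -1.23 ± 0.18, Gbp4 at -0.61 ± 0.16 and Apol9a at -0.50 ± 0.15. In antigen processing 2 of 14 fell, the transporter subunit gene Tap2 by 0.59 ± 0.11 and the peptide-trimming enzyme gene Erap1 by 0.33 ± 0.08. Tmem173, the STING gene, fell by 0.46 ± 0.14 as the 1 call among 15 other sensor and adaptor genes. Socs1, a feedback inhibitor of JAK kinases, gave 0.18 ± 0.15 and did not pass. With 1 library left out, adjusted p reached 0.17 for Tmem173 (Py2T-LT control replicate 1; 0.13 and 0.082 without MEKi replicates 2 and 1), 0.20 and 0.094 for Gbp4 (MEKi replicate 2, control replicate 2), 0.066 for Erap1 (MEKi replicate 2), and 0.054 to 0.13 for Apol9a (each of the 4 compared libraries), and DESeq2 did not call Tmem173 (0.096) or Apol9a (0.13). Cycling genes were higher in the same libraries, with 9 of 10 called up and a summed level of 1352 to 1377 CPM against 987 to 1000 CPM in controls. Of 8 tested epithelial markers 1 rose and 3 fell (589 to 675 CPM summed over the 12 listed, against 642 to 693 CPM), and of 12 mesenchymal markers 2 rose and 1 fell. The part of these markers in the values above was not tested.

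BMP2 together with the inhibitor was compared with the same controls and with the inhibitor alone. The second comparison reads the addition of BMP2 together with any rosiglitazone in its medium, since whether it held any is not known here. The Ifit genes, Oasl2, both guanylate-binding protein genes and the class I heavy chain genes were lower in the combination than in either group. Against controls 2 of 33 tested genes rose and 16 fell, where 38.5% of all genes were called, 19.1% rising and 19.4% falling. The median log2 fold change was -0.34 against 0.00 over all genes, and 8 genes had fallen by more than 1. Against the inhibitor alone none rose and 12 fell, where 37.3% of all genes were called, 17.9% rising and 19.4% falling, with a median of -0.35 against 0.01. None rose there at an unadjusted p under 0.05 or by DESeq2 either. The 2 comparisons share the combination's libraries, so their values are not independent.

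**Figure D2:**
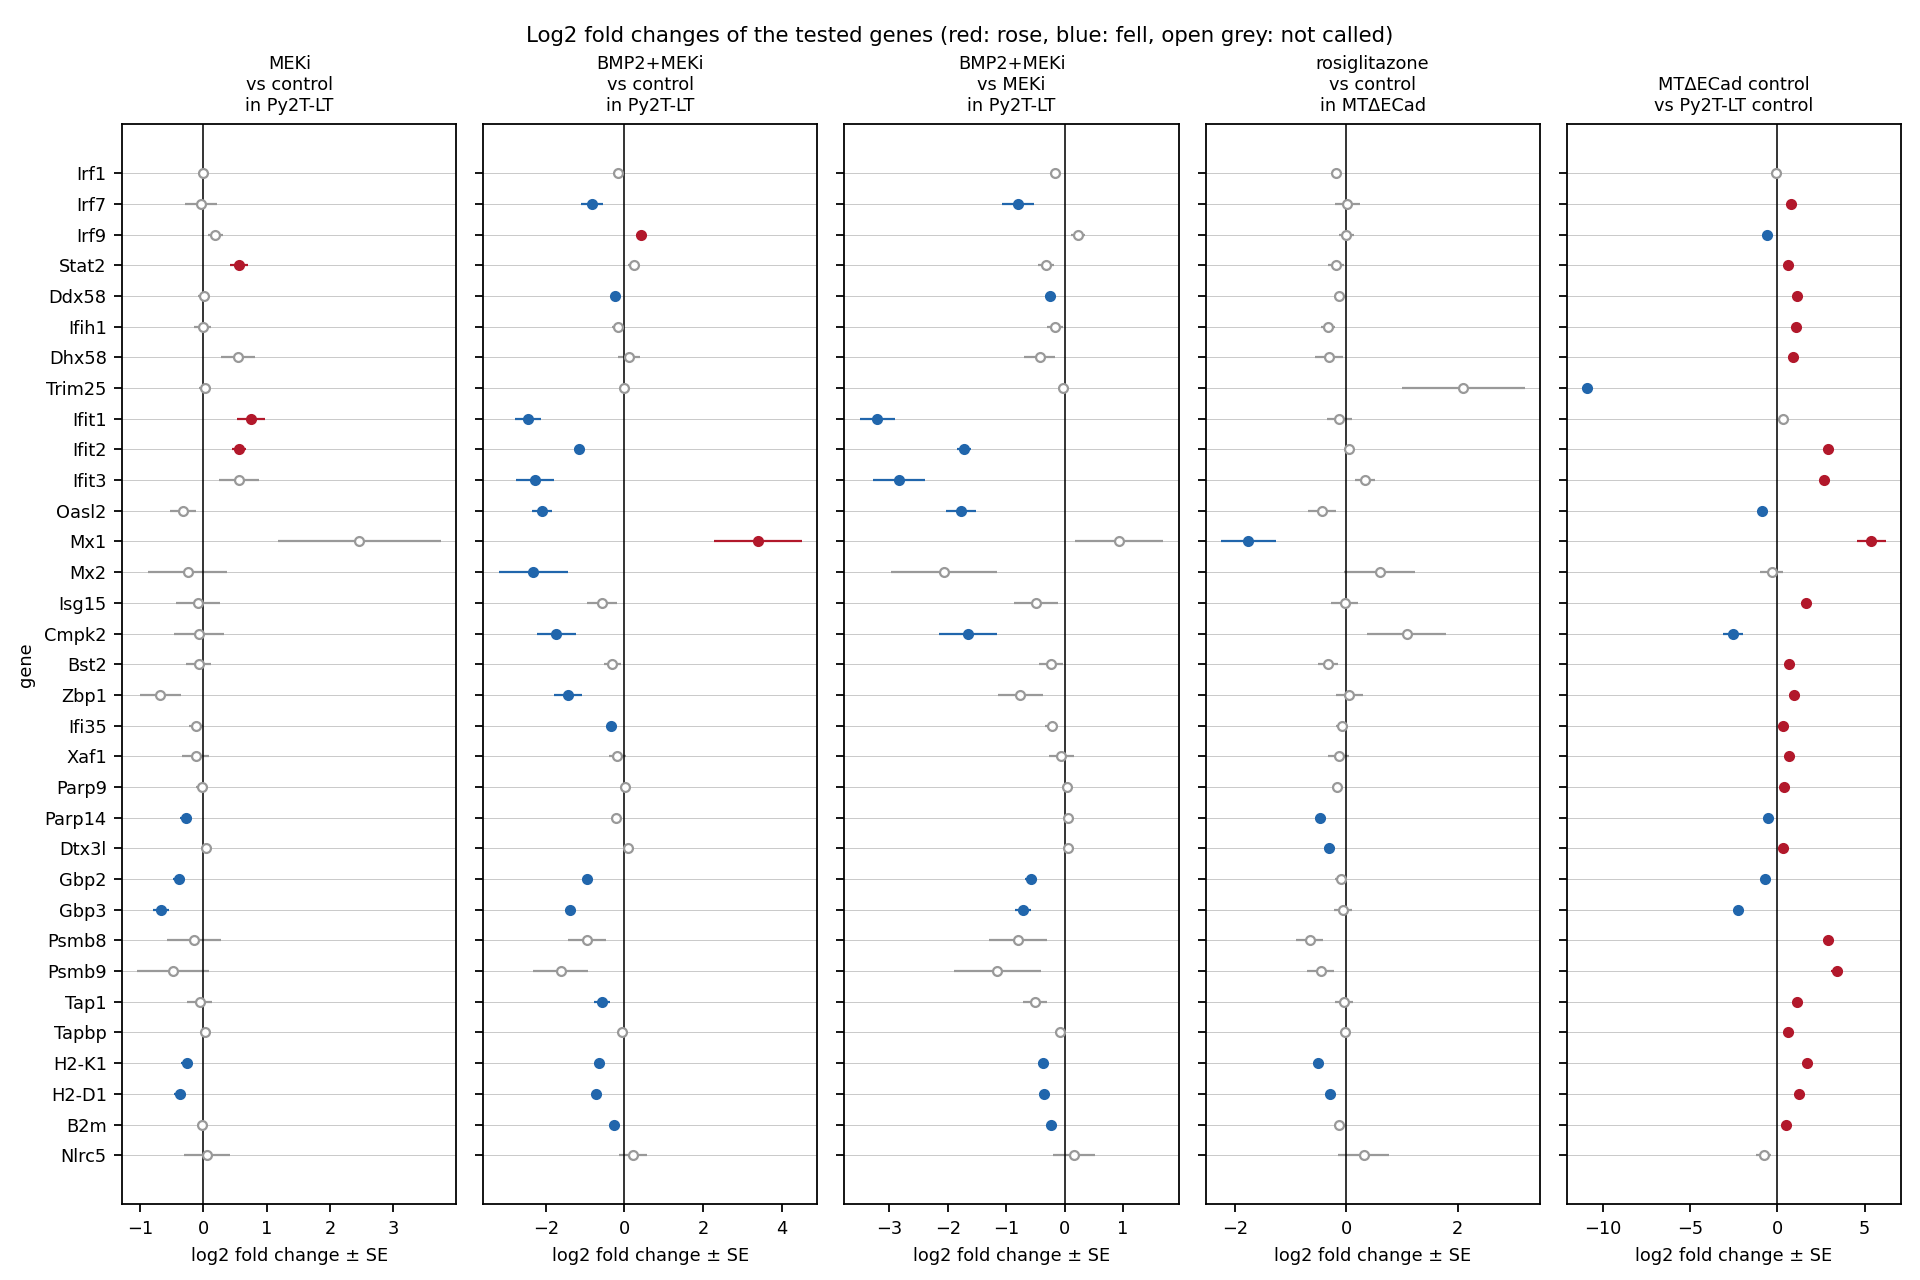
Log2 fold change ± SE of the 33 tested genes in the 5 comparisons (one panel each, with its own x axis); filled red points rose, filled blue points fell and open grey points were not called. In the 2 panels with BMP2, Ifit1 and Oasl2 lie at -2.46 and -2.10 against controls and at -3.21 and -1.77 against the inhibitor, and in the panel of the 2 lines Trim25 lies at -10.94.

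Ifit1 stood at 0.737 and 0.872 CPM with BMP2 and the inhibitor, below each control and each inhibitor library. It fell by 2.46 ± 0.33 against controls (edgeR adjusted p = 2.8e-06) and by 3.21 ± 0.30 against the inhibitor alone (edgeR adjusted p = 2.1e-08). Ifit2 stood at 8.04 and 7.68 CPM, a fall by 1.16 ± 0.13 and by 1.72 ± 0.12. Ifit2 was therefore highest with the inhibitor alone and lowest with the combination, without overlap. Ifit3, at 1.05 and 1.13 CPM in controls and 1.62 and 1.59 CPM with the inhibitor, came down to 0.268 and 0.174 CPM, on 7 counts in all. The ratio of control to combination counts for Ifit3 was 4.98 (exact 95% counting interval 2.18 to 13.3, covering counting error only). Reads shared by related Ifit genes may be divided between them or counted for each, so the 6 rows of the family were also summed. The sum was 380 and 401 counts in controls, 482 and 748 with the inhibitor and 153 and 166 with the combination. The family sum fell by 1.29 ± 0.13 against controls and by 1.86 ± 0.12 against the inhibitor.

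Oasl2, an OAS-like gene, stood at 5.85 and 5.37 CPM in controls, 4.01 and 4.93 CPM with the inhibitor and 1.27 and 1.34 CPM with the combination. It fell by 2.10 ± 0.25 against controls and by 1.77 ± 0.26 against the inhibitor. Cmpk2, a mitochondrial nucleotide kinase gene, lies 12665 bases from the start of Rsad2. It stood at 1.97 and 1.56 CPM in controls and at 0.402 and 0.640 CPM with the combination, and fell by 1.73 ± 0.50. With the inhibitor alone it stood at 1.49 and 1.86 CPM, and the fall against that group was 1.66. Zbp1, the gene of a sensor of Z-form nucleic acid, went from 1.73 and 2.00 CPM to 0.469 and 0.872 CPM and fell by 1.44 ± 0.36. The combination's libraries lay below the controls for all 3. Isg15, the ubiquitin-like modifier gene, stood at 1.34 and 0.814 CPM against 1.73 and 1.44 CPM, below the controls without passing (-0.57 ± 0.37, edgeR adjusted p = 0.25).

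The Mx genes, GTPases that block viral replication, had very few counts in Py2T-LT cells. Mx1 had 1 and 0 counts in controls and 5 and 8 with the combination, 13.0 times as many after scaling (95% counting interval 1.96 to 554). Mx2 had 10 and 6 counts in controls and 0 and 3 with the combination, a ratio of control to combination of 5.32 (1.52 to 28.5). Although both passed edgeR's test in opposite directions (adjusted p = 0.021 and 0.044), DESeq2 called neither (0.082 and 0.13), and the sum of the pair gave -0.09 ± 0.58.

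Gbp3 stood at 16.3 and 13.0 CPM with the combination and fell by 1.38 ± 0.13 against controls and by 0.71 ± 0.14 against the inhibitor. Gbp2, at 47.8 and 41.4 CPM, fell by 0.96 ± 0.10 and 0.58 ± 0.10. In both genes the 3 Py2T-LT groups did not overlap, with controls highest, the inhibitor next and the combination lowest. Summed over the 5 Gbp rows of the chromosome 3 cluster, the level fell by 1.02 ± 0.09 and 0.66 ± 0.09.

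Among antigen presentation genes, H2-K1 stood at 49.2 and 50.7 CPM in controls, 43.7 and 39.6 CPM with the inhibitor and 30.3 and 34.0 CPM with the combination. It fell by 0.63 ± 0.09 against controls and by 0.37 ± 0.09 against the inhibitor. H2-D1 stood at 158 and 138 CPM, 119 and 110 CPM, and 88.7 and 90.1 CPM in the same order, and fell by 0.73 ± 0.09 and 0.35 ± 0.09. Both genes thus stepped down over the 3 groups without overlap. B2m fell less, by 0.25 ± 0.07 against controls, to 338 and 307 CPM. Tap1, which with Tap2 pumps peptides into the endoplasmic reticulum, went from 6.28 and 5.25 to 3.35 and 4.36 CPM, a fall by 0.57 ± 0.20. Its partner Tap2, outside the named genes, went from 40.2 and 36.7 to 11.2 and 12.3 CPM and fell by 1.71 ± 0.12. Tapbp, the tapasin gene that loads peptides, stood at 83.0 and 82.9 CPM against 87.9 and 84.6 CPM and was not called (-0.06 ± 0.08). The immunoproteasome genes Psmb8 (-0.94 ± 0.48) and Psmb9 (-1.62 ± 0.69) did not pass, on 18 and 5 counts in the combination's libraries together.

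**Figure D3:**
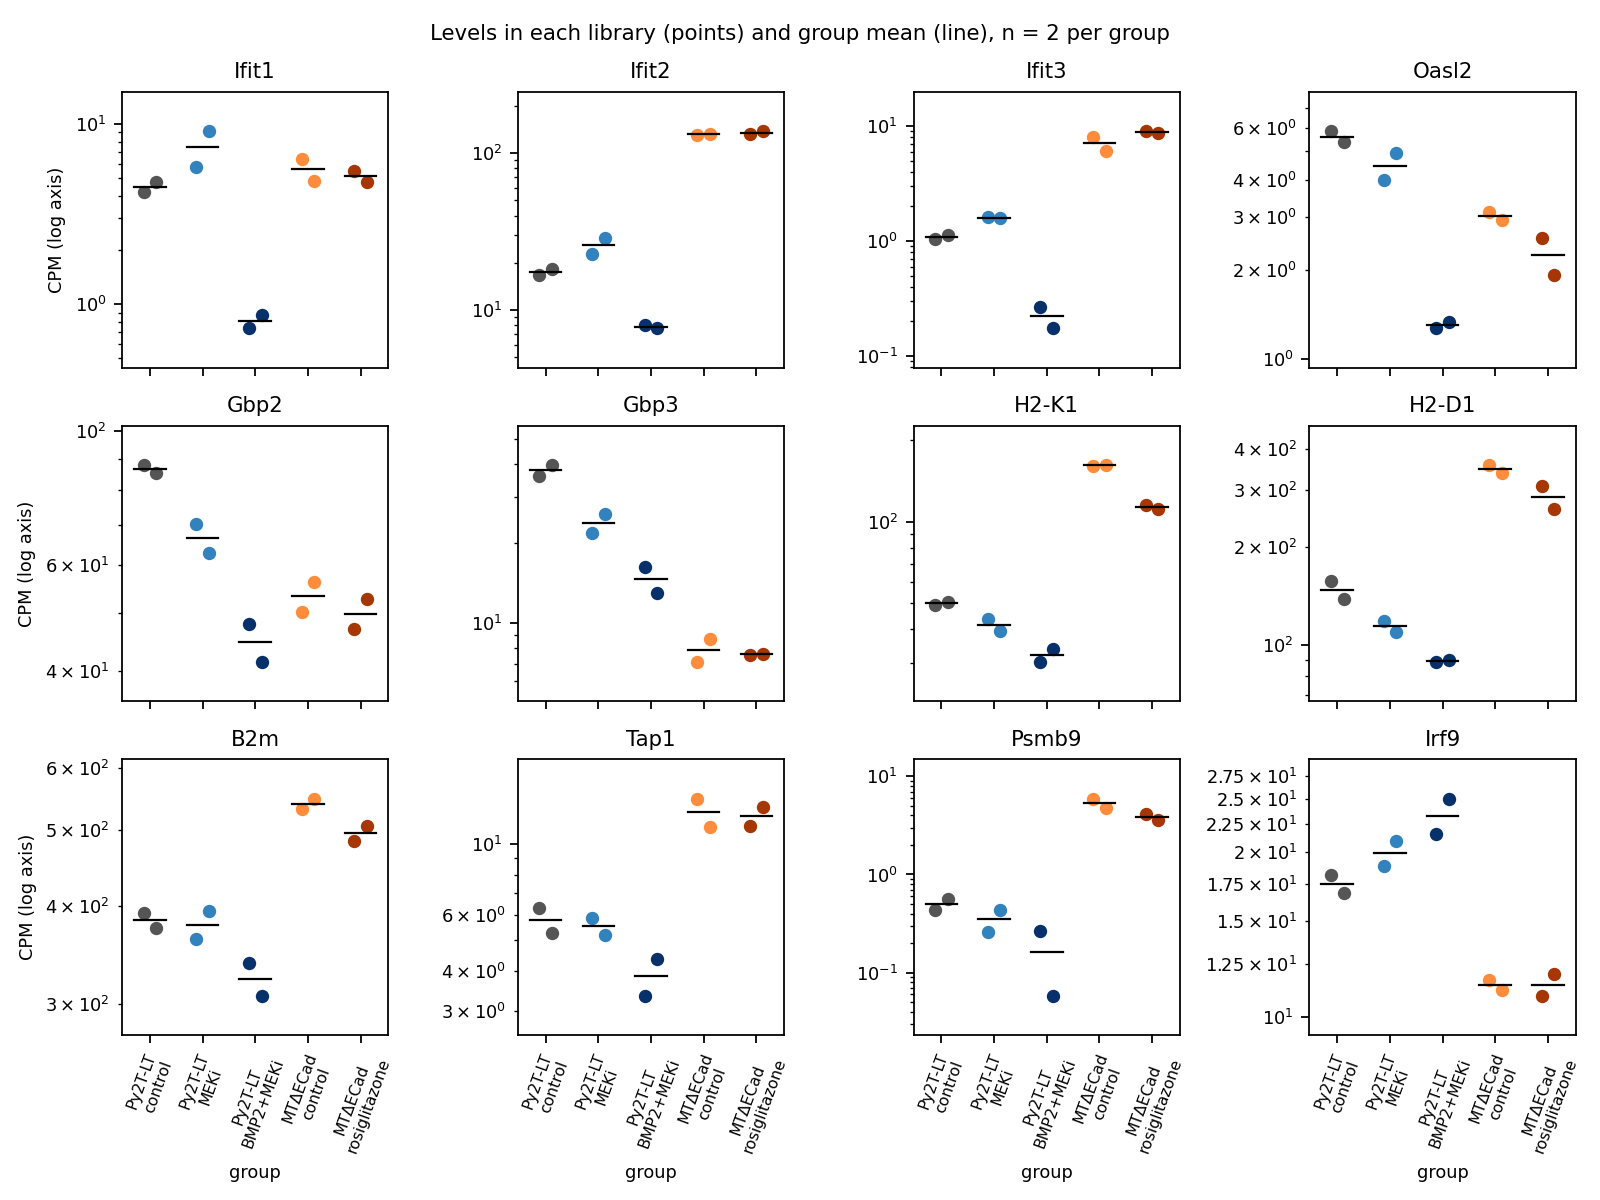
CPM on log axes of 12 genes in each library (points) with the group mean (line), n = 2 per group. Ifit1, Ifit2, Ifit3 and Oasl2 are lowest with BMP2 and the inhibitor, the H2-K1, H2-D1, Gbp2 and Gbp3 points step down over the 3 Py2T-LT groups, and Irf9 steps up.

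Among transcription factor and sensor genes both directions were seen. Irf9, the DNA-binding partner of STAT2, stood at 18.2 and 16.9 CPM in controls and 21.6 and 25.0 CPM with the combination and rose by 0.41 ± 0.12. Irf7, the factor that amplifies interferon α production, went from 2.96 and 2.94 to 1.81 and 1.51 CPM and fell by 0.83 ± 0.28. Against the inhibitor alone, where it stood at 2.65 and 3.07 CPM, it fell by 0.79 ± 0.28. Irf1 (-0.17 ± 0.08) and Stat2 (0.24 ± 0.15) were not called against controls. Ddx58, the RIG-I gene, fell by 0.24 ± 0.09, from 50.8 and 45.4 to 42.6 and 39.0 CPM, while Ifih1, the MDA5 gene, overlapped the controls at 14.2 and 10.5 against 13.3 and 14.4 CPM. Trim25, the ubiquitin ligase gene that activates RIG-I, stood at 76.0 to 84.3 CPM in all 6 Py2T-LT libraries. Ifi35 fell by 0.34 ± 0.11, and Parp9, Parp14, Dtx3l, Xaf1, Bst2, Dhx58 and Nlrc5, the class I transactivator gene, were not called in either comparison. Against the inhibitor alone Irf1, Irf9, Stat2, Isg15, Ifi35, Mx1, Mx2, Zbp1, Ifih1, Trim25, Tap1, Tapbp, Psmb8 and Psmb9 were not called either.

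Of the 16 falls against controls, 9 passed in each of the other analyses: Ifit1, Ifit2, Ifit3, Oasl2, Zbp1, Gbp2, Gbp3, H2-K1 and H2-D1. Against the inhibitor alone the same genes without Zbp1, 8 of 12, did so. Without control replicate 1, adjusted p was 0.068 for Irf7, 0.29 for Ddx58 (-0.16), 0.22 for Mx2, 0.054 for Cmpk2, 0.10 for Ifi35, 0.20 for Tap1 and 0.074 for B2m, and Mx1 moved to 5.70. Without control replicate 2 it was 0.065 for Irf7, 0.076 for Irf9, 0.052 for Mx2 and 0.14 for Mx1. Without BMP2+MEKi replicate 1 it was 0.081 for Cmpk2, 0.15 for Ifi35, 0.21 for Tap1 and 0.25 for Mx2 (-1.48), while Psmb9 passed at 0.037 (-2.94) and Parp14 at 0.0499. Without BMP2+MEKi replicate 2 it was 0.14 for Irf7, 0.13 for Irf9, 0.23 for Ddx58, 0.13 for B2m and 0.11 for Mx1, and Mx2 moved to -5.98. Leaving out either MEKi library took Mx2 to 0.054 and 0.053. DESeq2 did not call Irf7 (0.089), Ddx58 (0.084), Cmpk2 (0.054), Ifi35 (0.060) or Tap1 (0.090) against controls, nor Irf7 (0.11), Ddx58 (0.074) or Cmpk2 (0.069) against the inhibitor. The Ddx58 call against controls was also lost with no count filter (0.057) and with the compared groups alone (0.070), and that of Mx2 with no count filter and with a replicate block (0.051 each). In the comparison with the inhibitor, the calls of Irf7, Ddx58, Cmpk2 and B2m were lost without MEKi replicate 2 (0.16, 0.10, 0.086 and 0.18), those of Irf7, Ddx58 and B2m without BMP2+MEKi replicate 2 (0.17, 0.22 and 0.18), those of Irf7 and Cmpk2 without BMP2+MEKi replicate 1 (0.057 and 0.099), and that of Ddx58 without MEKi replicate 1 (0.11). There Tap1 (0.042) and Mx2 (0.040, -5.73) passed without BMP2+MEKi replicate 2, and Stat2 (0.040) without MEKi replicate 1.

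The receptor and kinase genes moved in both directions. Of 8 receptor and kinase genes, 1 rose and 2 fell against controls and 4 rose and 1 fell against the inhibitor. Of all genes, 38.5% and 37.3% were called in these 2 comparisons. Jak2, the kinase of the interferon γ receptor, went from 189 and 204 to 401 and 403 CPM and rose by 1.03 ± 0.08. Ifngr2 fell by 0.33 ± 0.10, Ifnar1, Ifnar2 and Ifngr1 were not called against controls (0.04, 0.07 and 0.17), and Socs1 fell by 0.58 ± 0.16. Without Py2T-LT control replicate 2 adjusted p was 0.078 for Ifngr2, and without control replicate 1 or BMP2+MEKi replicate 1 it was 0.059 and 0.10 for Socs1. Of 12 listed interferon genes, 6 had a row, with 58 counts over all 10 libraries and at most 11 in a library, for Ifne. The levels of these 6 were thus near the limit of detection, and the listed genes without a row could not be read.

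Of 45 other interferon-stimulated genes, 6 rose and 18 fell against controls, with a median of -0.37. Of all genes, 19.1% rose and 19.4% fell there. Apol9b fell by 3.34 ± 0.31 and Apol9a by 2.27 ± 0.18, while Trim30a, a regulator of innate signalling, rose by 2.09 ± 0.10. In antigen processing 5 of 14 fell and none rose by edgeR (none at an unadjusted p under 0.05 or by DESeq2 either), led by Tap2, Erap1 at -0.83 ± 0.08 and the immunoproteasome gene Psmb10 at -0.63 ± 0.13. Of 16 other class I and class I-like genes 1 rose and 4 fell, with H2-M3 at -1.18 ± 0.20. Among 15 other sensors and adaptors 3 rose and 3 fell (2 and 1 by DESeq2): Samhd1, a dNTP hydrolase gene, rose by 2.11 ± 0.09, from 51.6 and 61.9 to 246 and 245 CPM, and Tmem173 fell by 1.58 ± 0.15, from 17.8 and 15.5 to 5.56 and 5.58 CPM. Cycling genes fell too, 10 of 10 in both comparisons, to a summed level of 415 to 423 CPM. Against controls 2 of 8 tested epithelial markers rose and 4 fell, with the 12 listed summing to 315 to 338 CPM against 642 to 693 CPM in controls, and 1 of 12 mesenchymal markers rose and 4 fell, at 10850 to 11730 CPM in sum. Against the inhibitor 4 epithelial markers rose and 2 fell, and 3 mesenchymal markers rose and 5 fell. The part of these markers in the values above was not tested.

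The comparison of rosiglitazone with MTΔECad controls reads the effect of the PPARγ agonist on the same genes in the second line. The class I heavy chain genes and the Parp14 and Dtx3l genes were lower, and the Ifit genes were not called. Of 33 tested genes none rose and 5 fell, where 13.2% of all genes were called, 7.95% rising and 5.26% falling, with a median of -0.13 against -0.02. None rose at an unadjusted p under 0.05 or by DESeq2 either.

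H2-K1 stood at 161 and 162 CPM in controls and at 115 and 111 CPM with rosiglitazone, and fell by 0.51 ± 0.08 (edgeR adjusted p = 7.4e-05). H2-D1 stood at 357 and 337 CPM in controls and at 307 and 262 CPM with rosiglitazone, a fall by 0.29 ± 0.09. Parp14 went from 34.7 and 35.1 to 23.9 and 26.4 CPM and fell by 0.47 ± 0.10. In these 3 genes the treated libraries lay below the controls. The same held for Dtx3l and Mx1, and for genes that were not called, among them B2m and Irf1. How common this was over all genes was not computed. Dtx3l, a ubiquitin ligase gene whose product partners PARP9, starts 557 bases from Parp9. It went from 58.05 and 54.09 to 44.92 and 45.73 CPM and fell by 0.31 ± 0.09, whereas Parp9 was not called (-0.18 ± 0.09). Mx1 went from 22 and 27 counts to 3 and 11 counts and fell by 1.76 ± 0.50. Ifit2, at 132 and 138 CPM against 130 and 133 CPM, differed by 0.04 ± 0.09, and Ifit1, Ifit3, Gbp2, Gbp3, Tap1, Tapbp, B2m and the other tested genes were not called.

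The calls of H2-K1 and Parp14 passed in each of the other analyses. Without MTΔECad control replicate 1, adjusted p became 0.21 for H2-D1, 0.25 for Dtx3l and 0.071 for Mx1, and without control replicate 2 it became 0.061, 0.068 and 0.12. Without rosiglitazone replicate 1 it was 0.15 for Dtx3l and 0.31 for Mx1 (-1.09). Without rosiglitazone replicate 2 it was 0.34 for H2-D1 (-0.18) and 0.10 for Dtx3l, Mx1 moved to -2.99, and Psmb8 passed at 0.024 (-1.01). DESeq2 did not call Mx1 (0.25) or Dtx3l (0.084).

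Of 8 receptor and kinase genes 1 fell with rosiglitazone, Tyk2, from 59.4 and 59.8 to 44.5 and 43.3 CPM, by 0.44 ± 0.09. The share of all genes called was 13.2%. Ifnar1, Ifnar2, Ifngr1, Ifngr2 and Socs1 were not called (-0.16, -0.11, 0.22, -0.18 and 0.41). Of 45 other interferon-stimulated genes 3 rose and 8 fell (2 and 3 by DESeq2): Ifi27l2a, an interferon-induced mitochondrial protein gene, rose by 3.41 ± 0.45 and Trim14 by 2.30 ± 0.24. Of 16 other class I genes 2 rose and 5 fell (1 and 1 by DESeq2). Fcgrt, the neonatal Fc receptor heavy chain gene, rose by 1.64 ± 0.11, and H2-T24 fell by 0.84 ± 0.27 (edgeR adjusted p = 0.048), a call that DESeq2 did not make (0.38) and that was lost without MTΔECad control replicate 1 (0.48, -0.51) and without rosiglitazone replicates 1 and 2 (0.17 and 0.18). Of 14 antigen processing genes 3 fell, with Erap1 at -0.39 ± 0.08. Of 10 cycling genes 6 fell, to a summed level of 361 to 370 CPM from 511 to 529 CPM. Of 8 tested epithelial markers 4 rose, with the 12 listed summing to 418 to 463 CPM against 283 to 294 CPM, and of 12 mesenchymal markers 1 fell, the sum being 14610 to 15070 CPM against 18700 to 21330 CPM. The part of these markers in the values above was not tested.

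The untreated lines were compared to give the baseline of each gene. Antigen presentation genes, RNA sensors and Ifit2 and Ifit3 were higher in MTΔECad than in Py2T-LT controls, guanylate-binding protein genes were lower, and Trim25 was almost without counts in MTΔECad cells. Of 33 tested genes 22 rose and 7 fell, where 61% of all genes were called, 29.3% higher and 31.7% lower in MTΔECad. The median log2 difference was 0.64 against -0.03 over all genes, and 11 genes were higher by more than 1. With 1 line on each side, line and any feature particular to these cultures cannot be told apart.

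Psmb9, an immunoproteasome subunit gene, stood at 5.92 and 4.76 CPM in MTΔECad controls and at 0.431 and 0.562 CPM in Py2T-LT controls, a difference of 3.40 ± 0.34 (edgeR adjusted p = 2.8e-08). Psmb8 stood at 7.80 and 8.58 CPM against 0.924 and 1.25 CPM, a difference of 2.91 ± 0.30. Tap1, whose start lies 226 bases from that of Psmb9 on the other strand, stood at 13.9 and 11.3 CPM against 6.28 and 5.25 CPM, a difference of 1.12 ± 0.17. All 4 genes of peptide supply (with Tapbp at 0.64 ± 0.08) were thus higher in MTΔECad cells, where 29.3% of all genes were higher. Among the chains H2-K1 was higher by 1.69 ± 0.08, H2-D1 by 1.23 ± 0.09 and B2m by 0.49 ± 0.07. Nlrc5 differed by -0.78 ± 0.42 and was not called.

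Ifit2 stood at 130 and 133 CPM in MTΔECad controls against 16.7 and 18.3 CPM, a difference of 2.91 ± 0.10, and Ifit3 at 8.00 and 6.14 CPM against 1.05 and 1.13 CPM, a difference of 2.69 ± 0.25. Ifit1, at 6.40 and 4.82 CPM against 4.19 and 4.75 CPM, gave 0.32 ± 0.23 and was not called, so the family members differed unequally. Isg15 was higher by 1.62 ± 0.29. Mx1 had 49 counts against 1, a ratio of 52.1 after scaling (95% counting interval 8.92 to 2100). Ddx58 stood at 105 and 103 CPM against 50.8 and 45.4 CPM, a difference of 1.11 ± 0.09, and Ifih1 was higher by 1.07 ± 0.13. Stat2, Irf7, Dhx58, Bst2, Zbp1, Xaf1, Ifi35, Parp9 and Dtx3l were higher by 0.30 to 0.93.

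Trim25 stood at 1234 to 1464 counts in the 6 Py2T-LT libraries, and the 4 MTΔECad libraries had 1 and 0 counts as controls and 4 and 1 with rosiglitazone. The control lines differed by a count ratio of 2430 (95% counting interval 436 to 96100), at edgeR adjusted p = 2.2e-18. Its neighbours on chromosome 11 did not share this: Coil, whose gene ends 7790 bases away, stood at 14.4 to 18.1 CPM in Py2T-LT and 18.2 to 21.3 CPM in MTΔECad libraries, and Dgke, 14885 bases away on the other side, at 33.0 to 41.7 and 38.6 to 48.2 CPM. Scpep1, farther off, was higher in MTΔECad cells by 1.03 ± 0.07. Trim25 (chr11:88999403-89020294, GRCm38.p6) had the widest gap between the lines among the 33 tested genes.

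**Figure D4:**
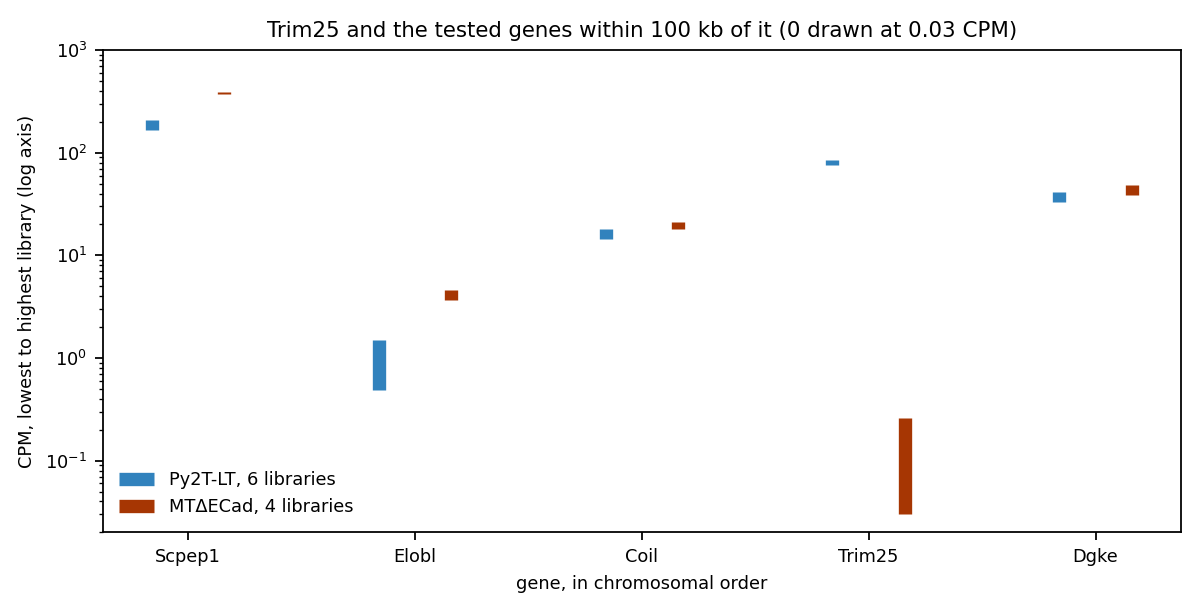
Range of CPM from the lowest to the highest library, on a log axis, of Trim25 and the 4 tested genes within 100 kb of it, in 6 Py2T-LT libraries (blue) and 4 MTΔECad libraries (brown); 0 is drawn at 0.03 CPM. Trim25 lies at 76.0 to 84.3 CPM in Py2T-LT and at no more than 0.262 CPM in MTΔECad, whereas Coil and Dgke lie close together in both lines.

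The other genes lower in MTΔECad controls were Gbp3 (-2.26 ± 0.14), Gbp2 (-0.70 ± 0.10), Oasl2 (-0.89 ± 0.22), Irf9 (-0.62 ± 0.13), Parp14 (-0.55 ± 0.09) and Cmpk2. Gbp3 stood at 7.10 and 8.70 CPM against 36.0 and 39.7 CPM. Cmpk2 had 1 and 8 counts (9 in all) against 32 and 25 (57 in all), a ratio of Py2T-LT to MTΔECad of 5.96 (2.93 to 13.7). These 7 falls and 16 of the 22 rises passed in each of the other analyses. Among the remaining 6 rises, adjusted p was 0.088 for Irf7 and 0.12 for Xaf1 (0.44) without MTΔECad control replicate 1, 0.051 for Dhx58 and 0.12 for Ifi35 without MTΔECad control replicate 2, and 0.052 for Bst2 and 0.11 for Ifi35 without Py2T-LT control replicate 2. Without MTΔECad control replicate 2, Cmpk2 moved to -4.52 and Nlrc5 passed at 0.049 (-1.40). DESeq2 did not call Irf7 (0.056), Zbp1 (0.057) or Ifi35 (0.060).

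Of 8 receptor and kinase genes 5 were higher in MTΔECad controls and none lower by edgeR, nor was any at an unadjusted p under 0.05 or by DESeq2. The share called, 62.5%, was near the 61% of all genes called (29.3% higher and 31.7% lower). In the lists that follow it was 68.9% of other interferon-stimulated genes, 57.1% in antigen processing and 81.2% of other class I genes. Ifnar2 stood at 69.2 and 70.9 CPM against 26.2 and 30.5 CPM, a difference of 1.31 ± 0.10, Ifngr2 differed by 1.37 ± 0.09 and Ifnar1 by 0.62 ± 0.08. Jak2 differed by 0.01 ± 0.08 and was not called. Ifngr1 was not called (-0.06) and Socs1 was lower by 0.50 ± 0.16, with adjusted p 0.081 without Py2T-LT control replicate 1 and 0.065 without MTΔECad control replicate 1. Of 45 other interferon-stimulated genes 21 were higher and 10 lower (19 and 5 by DESeq2), with Ifi205 at 3.18 ± 0.23, Phf11d at 2.96 ± 0.37 and Lgals9 at 2.30 ± 0.13. In antigen processing 6 of 14 were higher and 2 lower. Psme1 and Psme2, the proteasome activator subunit genes, were higher by 1.57 ± 0.09 and 1.49 ± 0.12, and Psmb5, the constitutive counterpart of Psmb8, by 1.57 ± 0.11. Of 16 other class I genes 10 were higher and 3 lower, led by H2-T24 at 5.28 ± 0.48, Hfe at 3.55 ± 0.17 and H2-T22 at 2.70 ± 0.16. Of 15 other sensor and adaptor genes 6 were higher and 5 lower (6 and 4 by DESeq2), 73.3% called. Among the lower ones Mb21d1, the cGAS gene, was lower by 1.41 ± 0.19. All 10 cycling genes were lower in MTΔECad controls, 9 of 12 mesenchymal markers were higher and 1 lower, and 5 of 8 tested epithelial markers were lower. The part of these markers in the line differences was not tested.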

How the data were processed

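The authors deposited 1 table of raw counts, whole numbers for 18103 genes named by NCBI identifier. Per the submitters' processing notes, reads were aligned with STAR to mm10. Neither the annotation nor the counting tool, with its use of strand and of shared reads, is given in the sources used here, nor is the strain of either line, so class I values are counts against the H2 alleles of 1 reference. Of 14167 rows with 20 or more counts, 26 were identical to another row in all 10 libraries. H2-Q7 and H2-Q9 (216 counts each) were among them, so 2 rows of related genes, class I genes included, may hold the same reads. RefSeq GRCm38.p6 gave symbols, coordinates and promoters, and GENCODE M21 gave exon lengths. Counts were analysed with edgeR 4.0.16 in R 4.3.3: filterByExpr, TMM scaling, 1 robust quasi-likelihood fit over all 10 libraries (5 residual degrees of freedom), and Benjamini-Hochberg adjustment over 13149 genes per comparison at 0.05. The SE is the log2 fold change divided by the square root of F. Some genes with 1 to 9 counts in a group are given as ratios with exact 95% counting intervals. Others, such as Psmb9 with BMP2 and the inhibitor, are given as log2 fold changes. The script was tested on simulated data. The genes and lists were chosen with earlier results of these data known. A gene of the receptor and kinase list is not reported here and was left out of the list's counts. Library values or their range are given for up to 8 called genes with the largest change per comparison. The same holds, in some comparisons, for the most abundant gene of each role. Up to 3 called genes per pathway list are named. Alternatives were RLE and upper quartile scaling, no count filter, DESeq2 1.42.0, a fit of the compared groups alone, a replicate block, each library left out, and family sums. With 2 experiments a group, a p-value reflects only how those vary. A lack of overlap between 2 libraries and 2 others is a description, and its share over all genes was not computed.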

Additional observations from a re-analysis of the deposited data

How the results depend on the processing

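Of 165 gene comparisons, 72 were called, and 44 of these calls passed in each of the 16 alternatives, while 7 uncalled ones passed in at least 1. With the inhibitor, 3 genes fell by DESeq2 and with only the compared groups fitted. With BMP2 and the inhibitor, 1 gene rose in each of these 2 analyses and 10 fell by DESeq2 (16 as reported), and with rosiglitazone 3 fell by DESeq2. With 1 library left out, rises and falls were 1 to 3 and 1 to 5 with the inhibitor, 0 to 2 and 9 to 16 with BMP2 and the inhibitor, 0 and 8 to 12 against the inhibitor alone, 0 and 2 to 5 with rosiglitazone, and 20 to 22 and 7 to 8 between the lines. Over all genes, the 1737 changed with rosiglitazone became 1112 to 1915, the low end without MTΔECad control replicate 1. The cause of these shifts was not tested, beyond the smaller number of libraries. Summing the Mx pair reversed Mx1 with BMP2 and the inhibitor (-0.085, edgeR adjusted p = 0.93) and Mx2 between the lines (1.92, edgeR adjusted p = 8.1e-04), since 1 sum then stands for both genes. With the sum, the Mx2 fall with BMP2 and the inhibitor was lost too. So was the Mx1 fall with rosiglitazone (-0.90, edgeR adjusted p = 0.15). Replicate numbers are shared by the groups, and whether they mark a shared experiment is not given in the sources used here. Deviations of same-numbered libraries correlated at -0.31 to 0.35 over 10 pairs of groups, which cannot decide it with 2 libraries a group. With a replicate block, 1 call was lost, Mx2 with BMP2 and the inhibitor (-2.31, adjusted p = 0.051). Depth limits the Mx, OAS and immunoproteasome genes in Py2T-LT cells, where 3 counts are at most 0.209 CPM.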
